A study of Mus musculus with 109 samples.

Results

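Cxcr4, Itgb1, Itga6 and Dag1 were followed as 4 of the 15973 genes in a count table of single cells from the postnatal mouse cerebellum. They encode a chemokine receptor and matrix receptors, and their rows were taken by gene symbol. The table held 109 cells prepared from cerebella of C57BL/6 mice at postnatal day 7 (P7) on a Percoll density gradient, which enriches granule cell precursors (GCPs). Cells were captured singly on a C1 Fluidigm chip, and each gave a Smart-seq library made by amplifying the cDNA of that cell. No treatment or genotype was compared, and every cell belonged to the same preparation type, so the comparisons below are between cell states within it.

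The titles of the samples placed the cells in 6 library groups of 18 or 19 cells. The labels named no animals and did not tie the library groups to separate cerebella, so a p-value over library groups measures the spread between these groups, which may be technical. Counts were expressed as CPM, the count of a gene divided by the total of its cell and multiplied by 1000000. The median total count of a cell was 3604792 (range 15071 to 8616017). In all, 32 cells had at least 100 CPM of Mki67, a gene of proliferating cells, and were called Mki67-high. The 75 cells under 10 CPM were called Mki67-low, and 2 cells lay between. Each library group held 3 to 8 Mki67-high and 10 to 15 Mki67-low cells. Dcx, a microtubule-binding protein of migrating young neurons, served as the second axis, with 83 cells at 100 CPM or more and 9 cells under 10 CPM. The labelled cell type was checked with 8 granule lineage genes, whose summed level was at least 100 CPM in 107 of the 109 cells. Astroglial genes were also present, and summed to 100 CPM or more in 71 of 109 cells, 24 of 32 Mki67-high and 45 of 75 Mki67-low. By a stricter rule, 10 cells, 5 Mki67-high and 5 Mki67-low, had 50 CPM or more of at least 3 astroglial markers. Only these 10 are called cells with astroglial markers below, so leaving them out keeps many cells with astroglial transcripts. Oligodendrocyte lineage genes summed to 100 CPM or more in 36 of 109 cells, with a median of 58.9 CPM in Mki67-high and 4.69 CPM in Mki67-low cells. Purkinje markers summed to 100 CPM or more in 16 of 109 cells, 14 of them Mki67-low. Inhibitory interneuron markers did so in 14 cells, 12 of them Mki67-low, and Gad1 is in both lists. The summed endothelial, meningeal and microglial markers had a median of 0 CPM over the cells. They reached 100 CPM in 1, 3 and 3 cells, and the meningeal and microglial ones were all Mki67-high.

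GCPs proliferate in the outer external granule layer under the pia mater and its basement membrane, leave the cell cycle, and migrate inward as granule cells. CXCR4 is the receptor of the chemokine CXCL12, which is secreted by the meninges and attracts granule cell precursors to the cerebellar surface. The integrin β1 chain (Itgb1) pairs with α chains such as α6 (Itga6) to bind laminin, and dystroglycan (Dag1) binds laminin through sugar chains on its α subunit. These receptors therefore connect precursors to the same pial surface from which Dcx-positive cells depart.

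In GENCODE M21 on GRCm38, the mm10 build of the deposited counts, Cxcr4 lies on the minus strand of chromosome 1 (128588199 to 128592293) in 2 exonic parts of 1808 bases in all. Itgb1 lies on the plus strand of chromosome 8 (128685654 to 128733200), Itga6 on the plus strand of chromosome 2 (71745616 to 71858416) and Dag1 on the minus strand of chromosome 9 (108204634 to 108263958). Their exons total 4081, 9025 and 6357 bases. No exonic base of the 4 genes was shared with another annotated gene on either strand. The promoters of Cxcr4 and Itgb1 are shown here because these were the members at 10 CPM or more in the largest difference of cell shares between the Mki67 classes. RefSeq promoter sequence (GRCm38.p6) covered 250 bases before and 50 bases from the transcript start, written 5′ to 3′ on the gene's strand, chr1:128592250-128592549 for Cxcr4 and chr8:128685404-128685703 for Itgb1. Capitals mark TATAAA on either strand (the TATA box, here 2 overlapping matches) and CGCATGCG (the palindromic core of the NRF1 site).
Cxcr4: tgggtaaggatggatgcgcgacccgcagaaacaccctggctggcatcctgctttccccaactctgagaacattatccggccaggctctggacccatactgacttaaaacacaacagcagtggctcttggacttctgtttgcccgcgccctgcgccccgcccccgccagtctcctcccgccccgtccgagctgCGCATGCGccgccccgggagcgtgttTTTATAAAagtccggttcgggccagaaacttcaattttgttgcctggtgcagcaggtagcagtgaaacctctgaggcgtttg
Itgb1: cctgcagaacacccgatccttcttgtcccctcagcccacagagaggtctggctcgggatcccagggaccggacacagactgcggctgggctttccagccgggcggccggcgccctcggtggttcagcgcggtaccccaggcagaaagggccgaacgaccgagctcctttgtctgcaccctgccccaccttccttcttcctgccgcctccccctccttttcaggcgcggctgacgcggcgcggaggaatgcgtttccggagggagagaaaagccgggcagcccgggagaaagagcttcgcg

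Cxcr4 held the TATA letters 30 and 32 bases before the start and the NRF1 core at 58 bases before it. Over all 32851 promoters of this length, 13.6% held the TATA letters and 1.87% held the NRF1 core on either strand. Neither was found in the Itgb1 window or in the 2 Dag1 windows. The cell cycle homology region TTTGAA, found in 17.9% of all promoters, was in none of these 4 windows. The GC content was 59.3% for Cxcr4 and 67.3% for Itgb1, beside a median of 52.7% over all promoters. These matches describe the letters of the windows only. Itga6 had no entry in this promoter set.

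The 4 transcripts differed widely in how often they were detected. Itgb1 had at least 1 count in 76 of 109 cells (69.7%, 95% Wilson interval 60.5 to 77.6), Dag1 in 42 (38.5%, 29.9 to 47.9), Cxcr4 in 26 (23.9%, 16.8 to 32.7) and Itga6 in 20 (18.3%, 12.2 to 26.6). Wilson intervals pool the cells of all library groups and treat them as independent, so they leave out the spread between library groups. The reads carry no molecular identifiers, so a count is a count of reads. Per kilobase of exon, the mean level was 57.1 CPM for Itgb1, 8.02 for Dag1, 6.09 for Itga6 and 5.81 for Cxcr4. The spread over library groups was close to or above these means (SD 50.2, 10.3, 10.3 and 7.78 CPM per kilobase, n = 6), and the library group ranges of neighbours in this order overlapped. Dcx reached 173.7 CPM per kilobase on the same scale.

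Expression was concentrated in few cells. The highest Itgb1 cell, a Mki67-low cell of library group 3, had 8596 CPM and carried 33.8% of the Itgb1 CPM summed over all cells. For Itga6 the highest cell had 3457 CPM (57.7% of the summed CPM), for Dag1 3058 CPM (55%) and for Cxcr4 441 CPM (38.5%), and all of these cells were Mki67-low. Many detected cells lay at the other end, with 1 to 4 counts. These made up 10 of 26 Cxcr4, 30 of 76 Itgb1, 10 of 20 Itga6 and 24 of 42 Dag1 cells. Low counts gathered in certain library groups. Library group 1 held the highest Dag1 cell and 10 of the 24 cells with 1 to 4 Dag1 counts, and library group 4 held the highest Itga6 cell and 5 of the 10 such Itga6 cells. Such low counts were also found for the class genes. Of the 75 Mki67-low cells, 57 had at least 1 Mki67 count, and each of the 109 cells had at least 1 Dcx count. The origin of these low counts was not tested, and shares of cells are therefore given at 1 count and at 10 CPM.

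**Figure D1:**
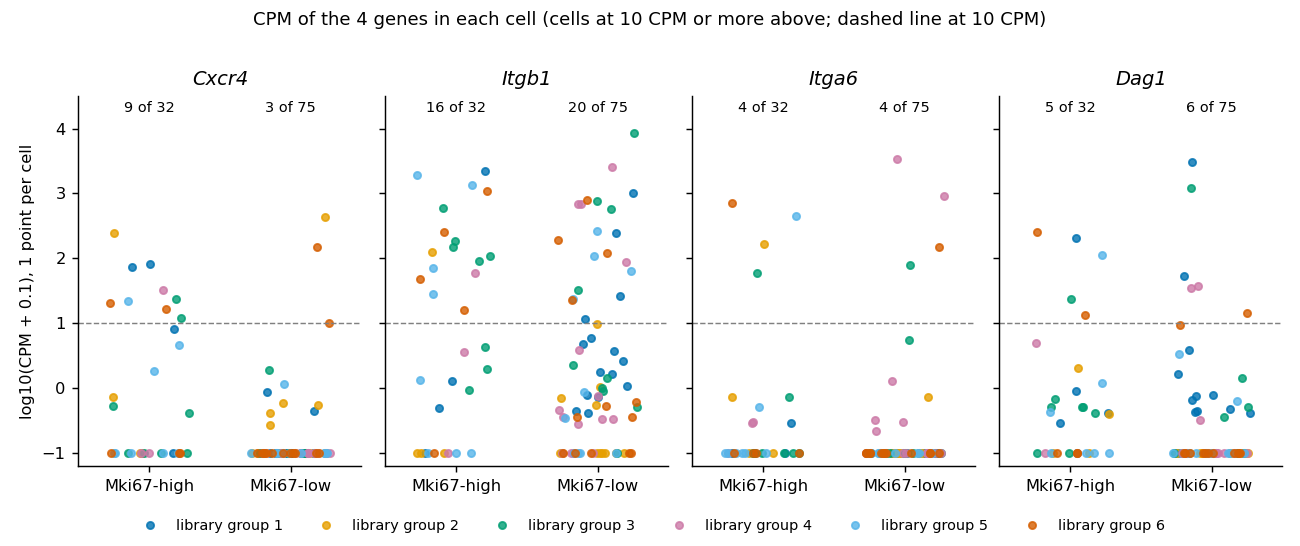
CPM of Cxcr4, Itgb1, Itga6 and Dag1 in each Mki67-high (32) and Mki67-low (75) cell, on a log10(CPM + 0.1) axis, with 1 point per cell coloured by library group. Cells without a count sit at the bottom, and the numbers at the top give the cells at 10 CPM or more (dashed line): 9 of 32 against 3 of 75 for Cxcr4.

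The first comparison asked whether cycling and non-cycling cells differed in these receptors. Cxcr4 was detected more often in cycling cells. At least 1 count was found in 15 of 32 Mki67-high cells (46.9%, 30.9 to 63.6) and in 11 of 75 Mki67-low cells (14.7%, 8.39 to 24.4). By library group the share ran from 33.3% to 75% (median 45.0%) in Mki67-high cells and from 0% to 41.7% (median 11.65%) in Mki67-low cells. The ranges overlapped through the Mki67-low cells of library group 2, but within each of the 6 library groups the Mki67-high share was the higher. The mean difference was 32.6 percentage points (SD 17.8, n = 6), with p = 0.03125 in an exact two-sided sign-flip test over library groups, the smallest p that 6 groups allow. Among the 8641 genes detected in 20 cells or more, 6.53% had a higher share in all 6 library groups, the median difference was 7.55 points, and 97.3% of genes had a difference at or below that of Cxcr4.

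The difference in Cxcr4 was also present among cells with more than traces of the transcript. At 10 CPM or more, Cxcr4 was found in 9 of 32 Mki67-high cells (28.1%, 15.6 to 45.4) and in 3 of 75 Mki67-low cells (4.0%, 1.37 to 11.1). Mki67-high cells at this level occurred in all 6 library groups and Mki67-low cells in 2 of them. The mean difference over library groups was 27.0 points (SD 13.4, n = 6, higher in 6 of 6, exact sign-flip p = 0.03125), a pattern that 6.21% of the 8641 genes shared. At 5 counts or more the difference was 33.7 points, again in 6 of 6 groups, beside 8.34% of genes. On the log scale, the mean log2(CPM + 1) of Cxcr4 was 1.95 in Mki67-high and 0.34 in Mki67-low cells. This difference of 1.61 (SD 1.14, n = 6) had the same sign in 6 of 6 groups with p = 0.03125 by the exact sign-flip test, as for 8.48% of genes, and the median difference over genes was 0.41. An alternative fit of this measure over all genes, by limma with the library group as a replicate block, did not call Cxcr4. Its limma adjusted p was 0.086, while 114 of 9084 genes passed the threshold of 0.01.

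The number of detected genes moved with the Mki67 classes. Mki67-high cells had a median of 4967.5 detected genes, against 4193 in Mki67-low cells. The mean log2 number was higher in 6 of 6 library groups (difference 0.28, SD 0.16, exact sign-flip p = 0.03125). Total counts were higher in 5 of 6 groups (mean log2 difference 0.17, SD 0.25, exact sign-flip p = 0.125). Astroglial genes were not tested between the classes. After each cell was thinned to 1000000 counts, the Cxcr4 difference was 32.3 points (6 of 6 groups). Of the 10 cells with astroglial markers, 3 had 10 CPM or more of Cxcr4 (30.0%), against 9 of the other 99 cells (9.09%). Without these 10 cells, 6 of 27 Mki67-high cells (22.2%) and 3 of 70 Mki67-low cells (4.29%) reached 10 CPM. The only Mki67-high cell of library group 5 at this level (22.07 CPM) was among the cells left out. At 1 count, the difference in detection without these 10 cells was 29.2 points (6 of 6 groups). The summed meningeal and mural markers reached 100 CPM in 3 cells, all Mki67-high, and these were among the 16 cells with 5 or more Cxcr4 counts, whose median for these markers was 0 CPM. Of the 8 markers in that list, 4 (Dcn, Lum, Pdgfrb and Vtn) were not among the genes of the table. Of 3 cells of unusual depth, 2 were Mki67-high with 10 CPM or more of Cxcr4. Without the 3, 7 of 30 Mki67-high (23.3%) and 3 of 75 Mki67-low cells (4.0%) reached 10 CPM. The part of other cell types in the Cxcr4 difference was not tested.

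In sums of counts the Cxcr4 difference was not detectable. The summed counts gave 2.98 to 51.8 CPM (median 10.2) in the Mki67-high and 0 to 40.1 CPM (median 0.0975) in the Mki67-low cells of a library group, higher in 5 of 6 groups. The high Mki67-low sums belonged to library groups 2 and 6, in which the cells with 441 and 147.4 CPM carried 1427 of 1432 and 1044 of 1083 Cxcr4 counts. The log2 fold change in edgeR's quasi-likelihood test on these sums was 0.99 (SE 1.84, adjusted p = 0.927). It was 5.09 (adjusted p = 0.831) with the library group as a replicate block and 5.68 (adjusted p = 0.318) against cells with no Mki67 count. Leaving out library group 1 or 2 gave 0.37 and 1.90. Only 2 of 9084 genes other than Mki67 (0.022%) passed the adjusted threshold of 0.01 in this test. These were the mitotic genes Cdc20 and Tacc3, named after their values were seen. The sums varied strongly between library groups, with a biological coefficient of variation of 171.5%.

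**Figure D2:**
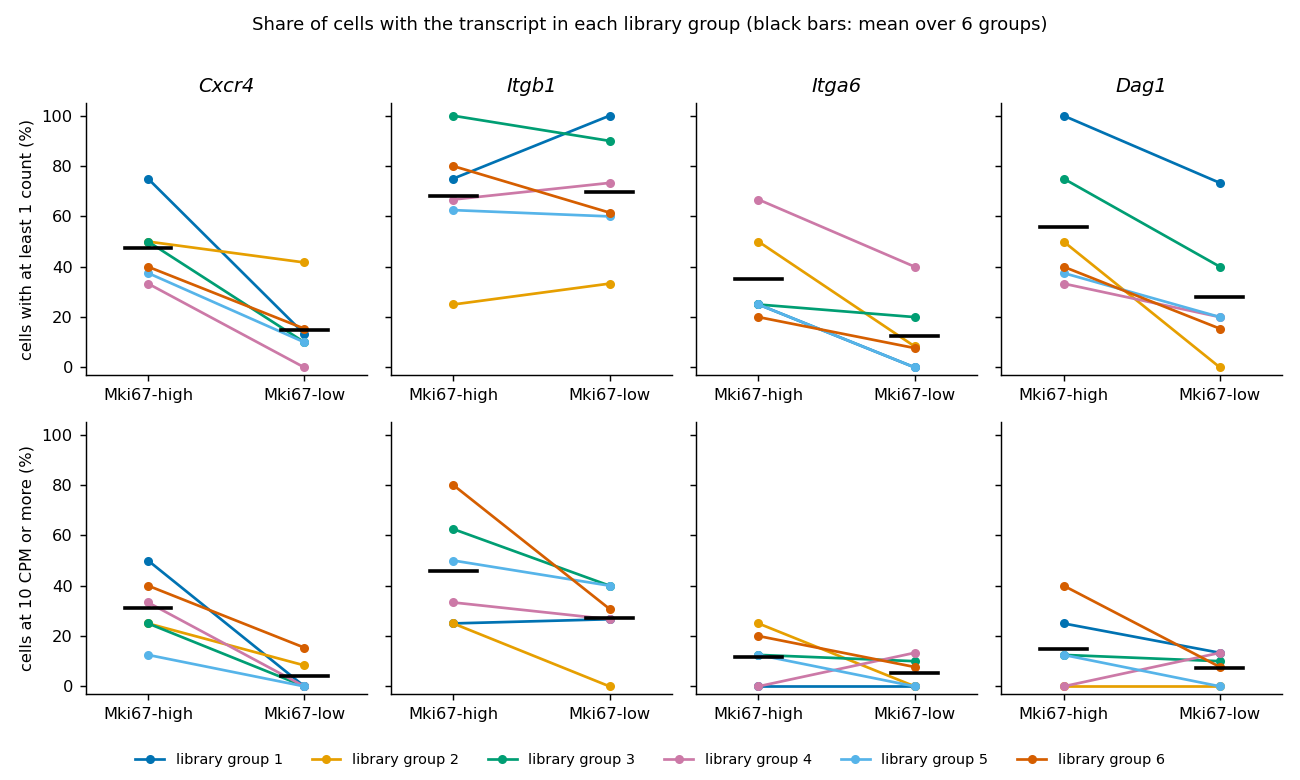
Share of cells (%) with at least 1 count (upper row) and with 10 CPM or more (lower row) of each gene in the Mki67-high and Mki67-low cells of the 6 library groups, joined by lines. Black bars are means over the 6 groups, and the Cxcr4 lines fall from Mki67-high to Mki67-low in all 6 groups in both rows.

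Itgb1, the common β chain of laminin-binding integrins, was found in most cells of both classes, and 10 CPM or more was reached by more of the cycling cells in 5 of 6 library groups, a difference that did not pass the test. At least 1 count was present in 23 of 32 Mki67-high (71.9%, 54.6 to 84.4) and in 53 of 75 Mki67-low cells (70.7%, 59.6 to 79.8). By library group these shares ran from 25% to 100% in Mki67-high and from 33.3% to 100% in Mki67-low cells, so the ranges overlapped, and the mean difference was -1.51 points (SD 15.3, n = 6, exact sign-flip p = 0.8125). At 10 CPM or more, Itgb1 was found in 16 of 32 (50%, 33.6 to 66.4) and 20 of 75 cells (26.7%, 18 to 37.6). This share was higher in Mki67-high cells of 5 of 6 groups, with a mean difference of 18.6 points (SD 18, n = 6), but the exact sign-flip test gave p = 0.0625. Of the 10 cells with astroglial markers 8 reached this level of Itgb1, against 28 of the other 99, and without them the shares were 11 of 27 (40.7%) and 17 of 70 (24.3%). The mean log2(CPM + 1) was 3.78 against 2.54, a difference of 1.24 (SD 1.13, n = 6, 5 of 6 groups, exact sign-flip p = 0.0625). Thinning the cells made it 1.18 and leaving out cells with astroglial markers 1.12. Each was higher in 6 of 6 groups with p = 0.03125 by the exact sign-flip test. Over all genes, 7.58% and 6.35% were higher in all 6 groups under these settings, in that order. In the sums, Itgb1 ran from 20.7 to 877 CPM (median 241.5) in Mki67-high and from 1.71 to 1223 CPM (median 71.6) in Mki67-low cells, with an edgeR log2 fold change of 0.06 (SE 1.16, adjusted p = 0.997).

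Itga6, the laminin-binding α6 chain, was rare. It had a count in 10 of 32 Mki67-high (31.2%, 18 to 48.6) and 10 of 75 Mki67-low cells (13.3%, 7.41 to 22.8), and the share was higher in Mki67-high cells of 6 of 6 library groups by 22.6 points on average (SD 12.7, n = 6, exact sign-flip p = 0.03125). The share ran from 20% to 66.7% over groups in Mki67-high and from 0% to 40.0% in Mki67-low cells. Library group 4 was the highest in both. A higher share in all 6 groups was found for 6.53% of the 8641 genes, and 89.0% of genes had a difference at or below that of Itga6. Over all genes the median differences were 8.75 points at 5 counts or more and 6.75 points at 10 CPM or more. The Itga6 difference rested on cells with very few counts. At 5 counts or more it was 3.72 points (3 groups higher, 2 lower, exact sign-flip p = 0.63), and at 10 CPM or more it was 6.50 points, from 4 of 32 (12.5%) and 4 of 75 cells (5.33%), with p = 0.3125 in the exact sign-flip test. The difference at 1 count also missed the threshold after thinning (17.6 points, higher in 5 and lower in 1 of 6 groups, exact sign-flip p = 0.0625) and without the 3 cells of unusual depth (21.65 points, higher in 5 and lower in 1, exact sign-flip p = 0.0625). The sums ran from 0.0749 to 127.3 CPM and from 0 to 242.2 CPM, and the edgeR log2 fold change was -0.41 (SE 2.10, adjusted p = 0.988). Of the 8 cells at 10 CPM or more, 4 carried astroglial markers, and without such cells 2 of 27 (7.41%) and 2 of 70 (2.86%) remained. Among the 10 cells with 5 or more Itga6 counts, Purkinje markers summed to 100 CPM or more in 4, against 12 of the other 99. Inhibitory interneuron markers did so in 3 and 11 cells, and astroglial genes in 6 and 65. The part of other cell types in the Itga6 values was not tested. The Itga6 sums were higher in Mki67-high cells of 5 of 6 groups, and the 242.2 CPM came from library group 4. Without library group 4 the log2 fold change was 3.89. It was also positive without the 3 cells of unusual depth (0.10) and with the library group as a replicate block (4.10).

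Dag1, which encodes both dystroglycan subunits, was detected more often in cycling cells, again mostly as few counts. At least 1 count was found in 18 of 32 Mki67-high (56.2%, 39.3 to 71.8) and 22 of 75 Mki67-low cells (29.3%, 20.2 to 40.4). The group shares ran from 33.3% to 100% and from 0% to 73.3%, with library group 1 highest in both classes. The Mki67-high share was higher in 6 of 6 groups by 27.9 points (SD 13.2, n = 6, exact sign-flip p = 0.03125). Of the 8641 genes, 6.53% had a higher share in all 6 groups, and 94.5% had a difference at or below that of Dag1. At 5 counts or more the difference was 10.1 points (4 groups higher, 1 lower, p = 0.125), and at 10 CPM or more 7.61 points (p = 0.3125), both by the exact sign-flip test. The latter came from 5 of 32 Mki67-high and 6 of 75 Mki67-low cells. The median differences over all genes were 8.75 points at 5 counts or more and 6.75 points at 10 CPM or more. Markers of other cell types were high in many of the 18 cells with 5 or more Dag1 counts. Oligodendrocyte lineage genes summed to 100 CPM or more in 11 of these 18 and 25 of the other 91 cells (medians 232.9 and 5.47 CPM), astroglial genes in 14 of 18 and 57 of 91, and microglial genes in 3 of 18 and 0 of 91. Their part in the Dag1 values was not tested. Without the cells called astroglial, 3 of 27 Mki67-high (11.1%) and 5 of 70 Mki67-low cells (7.14%) had 10 CPM or more of Dag1. The mean log2(CPM + 1) differed by 0.59 (SD 0.72, n = 6, 5 of 6 groups, exact sign-flip p = 0.09375). In the sums, Mki67-low cells of library group 1 had 266.9 CPM, carried by the single cell with 3058 CPM, and the log2 fold change was -1.72 (SE 1.84, edgeR adjusted p = 0.874). None of the 4 genes was called in the sums.

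**Figure D3:**
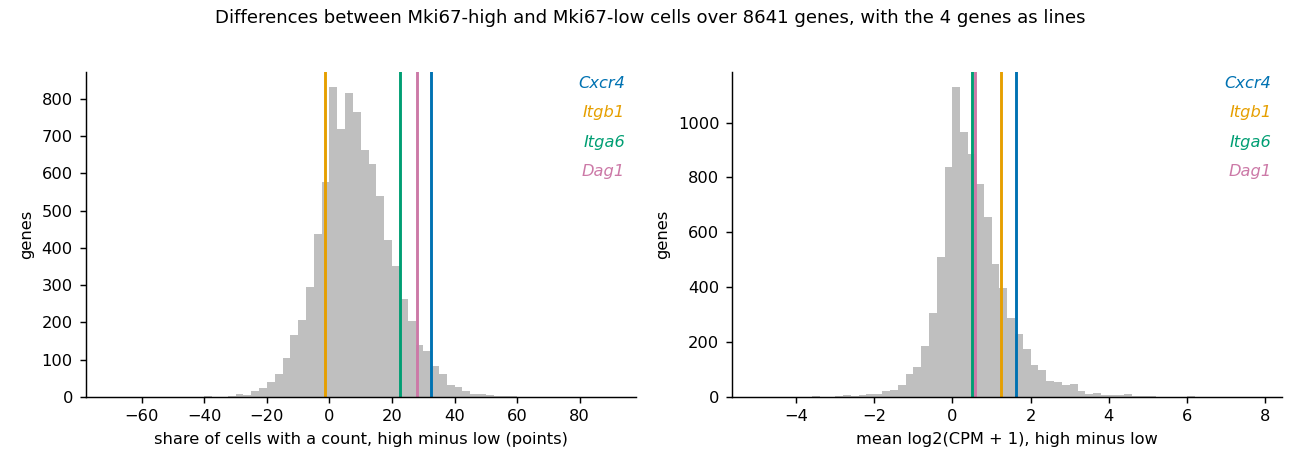
Number of genes by the difference between Mki67-high and Mki67-low cells, averaged over 6 library groups, for the share of cells with a count (left, percentage points) and for mean log2(CPM + 1) (right), over 8641 genes detected in 20 cells or more. Coloured lines mark the 4 genes: Cxcr4 lies at 32.6 points and 1.61, Itgb1 at -1.51 points and 1.24.

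Dcx levels gave the second axis. Most cells at Dcx of 100 CPM or more were Mki67-low (62), and 19 were Mki67-high. These cells were not matched in Dcx, with medians of 2946 CPM (Mki67-low) and 756.4 CPM (Mki67-high). Both states could still be described at high Dcx. Within them, 10 CPM or more of Cxcr4 was found in 7 of 19 Mki67-high (36.8%, 19.1 to 59.0) and in 1 of 62 Mki67-low cells (1.61%, 0.285 to 8.59). For Itgb1 the shares were 11 of 19 (57.9%, 36.3 to 76.9) and 15 of 62 (24.2%, 15.2 to 36.2). Itga6 was at this level in 4 of 19 (21.1%) and 3 of 62 cells (4.84%), and Dag1 in 4 of 19 (21.1%) and 5 of 62 (8.06%). Of the 7 Mki67-high Cxcr4 cells 3 carried astroglial markers and 2 were of unusual depth, and 4 of the 11 Itgb1, 2 of the 4 Itga6 and 2 of the 4 Dag1 cells carried astroglial markers. Without such cells, an alternative chosen after seeing the data, the shares were 4 of 15 (26.7%) and 1 of 59 (1.69%) for Cxcr4, 7 of 15 (46.7%) and 14 of 59 (23.7%) for Itgb1, 2 of 15 (13.3%) and 2 of 59 (3.39%) for Itga6, and 2 of 15 (13.3%) and 5 of 59 (8.47%) for Dag1. Cells between 10 and 100 CPM of Dcx had 10 CPM or more of Cxcr4 in 2 of 9 Mki67-high and 1 of 8 Mki67-low cells. Among the cells under 10 CPM of Dcx, Cxcr4 reached this level in 0 of 4 Mki67-high cells (95% Wilson interval 0 to 49.0%) and in 1 of 5 Mki67-low cells. These shares describe the cells, and the difference between Dcx levels was not tested on them.

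Among the Mki67-low cells, the shares were close on both sides of the median Dcx level. Split at their own median of 1781 CPM of Dcx, the cells above and below it had 10 CPM or more of Cxcr4 in 1 of 38 and 2 of 37 cells, of Itgb1 in 10 of 38 and 10 of 37, of Itga6 in 2 of 38 and 2 of 37, and of Dag1 in 3 of 38 and 3 of 37. In the edgeR test on the sums of this split, Cxcr4 and Itga6 did not pass the filter on low counts. Itgb1 had a log2 fold change of -3.31 (SE 1.72, adjusted p = 0.995), and that of Dag1 was 5.88 (SE 2.68, adjusted p = 0.952). Without library group 3 the Itgb1 value was -0.46, and limma on mean log2(CPM + 1) gave 0.51 for Dag1. No gene other than Dcx (0%) of 6682 tested was called by edgeR in this split, with 345 at an unadjusted p under 0.05, while limma called 0 and DESeq2 called 419.

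**Figure D4:**
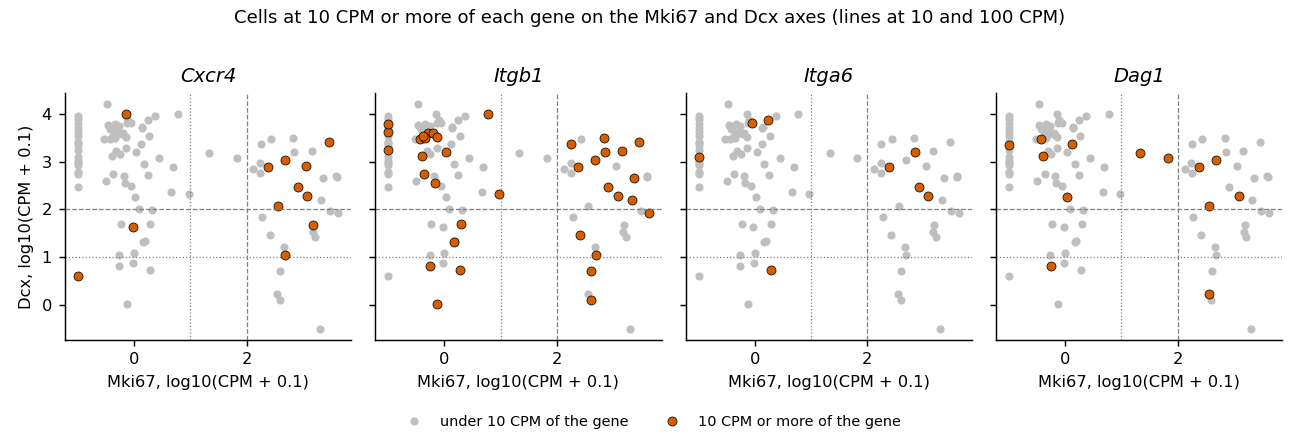
Mki67 (x axis) and Dcx (y axis) of all 109 cells as log10(CPM + 0.1), with cells at 10 CPM or more of each gene in orange and other cells in grey. Lines mark 10 and 100 CPM; of the 12 orange Cxcr4 cells, 9 lie at 100 CPM or more of Mki67, against 16 of the 36 Itgb1 cells.

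Dcx-high and Dcx-low cells were also compared as sums. The 9 Dcx-low cells were spread thinly, with 1 to 3 per library group. The log2 fold changes, Dcx-high over Dcx-low, were 0.88 for Cxcr4 (SE 1.64, adjusted p = 0.841), -2.61 for Itgb1 (SE 1.73, adjusted p = 0.464), 3.70 for Itga6 (SE 2.26, adjusted p = 0.419) and 1.90 for Dag1 (SE 2.0, adjusted p = 0.688). The intervals of these values are wide. Without library group 1 the value was -0.20 for Itgb1 and 0.14 for Dag1, and without library group 4 it was 1.53 for Itga6. With the library group as a replicate block, Itga6 was at 8.13 and Dag1 at 7.44. Of 7670 genes tested other than Dcx, 0 (0%) passed the threshold of 0.01 in edgeR, with 1450 at an unadjusted p under 0.05, whereas DESeq2 called 1485 and limma 0. At 1 count, Cxcr4 was present in 4 of 9 Dcx-low (44.4%, 18.9 to 73.3) and 17 of 83 Dcx-high cells (20.5%, 13.2 to 30.4), and Itgb1 in 6 of 9 (66.7%) and 57 of 83 (68.7%). At 10 CPM the shares of Cxcr4 were close, with 1 of 9 (11.1%, 1.99 to 43.5) and 8 of 83 (9.64%, 4.97 to 17.9). Itgb1 was present at 10 CPM in 5 of 9 (55.6%, 26.7 to 81.1) and 26 of 83 (31.3%, 22.4 to 41.9). Astroglial markers were carried by 3 of the 9 Dcx-low and 7 of the 83 Dcx-high cells, among them 3 of these 5 and 5 of these 26 Itgb1 cells. Without them 2 of 6 (33.3%) and 21 of 76 cells (27.6%) had 10 CPM or more of Itgb1.

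The 4 transcripts were seldom together at more than trace levels, and apart from Itgb1 each was itself rare there. At 5 counts or more, Cxcr4 was in 14.7%, Itga6 in 9.17% and Dag1 in 16.5% of all cells. All 4 had a count in 4 cells, each Mki67-high, and 3 of them had a count in 8 of 32 Mki67-high and 4 of 75 Mki67-low cells. Itga6 was found with its partner Itgb1 in 17 of 20 Itga6 cells (85.0%) and 22.4% of Itgb1 cells, where 69.7% of all cells had Itgb1. At 5 counts or more these were 6 of 10 Itga6 cells (60%) and 13% of Itgb1 cells, where 42.2% of all cells had Itgb1. The highest Itga6 cell (3457 CPM) had 0.26 CPM of Itgb1. At 5 counts, Cxcr4 and Itgb1 met in 8 of 16 Cxcr4 cells (50%) and Cxcr4 and Dag1 in 5 of 16 (31.2%). For each pair at this level, the share among the cells of 1 gene was above the share of the other gene over all cells. These overlaps were not tested. A Mki67-high cell of library group 6 had all 4 transcripts at high levels, with 16.4 CPM of Cxcr4, 1105 of Itgb1, 707.7 of Itga6 and 259.5 of Dag1.

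The integrin chains that could pair with or replace the members were described by detection. Of 14 other integrin subunits listed, 11 were in the table. Itgav (αv) had a count in 73 cells, Itga7 (α7, a laminin-binding chain) in 54, Itga4 (α4) in 25 and Itgb8 (β8) in 13, and the other 7 in 3 to 11 cells. Itga7 was found at 10 CPM or more in 16 of 32 Mki67-high (50%) and 9 of 75 Mki67-low cells (12%). At 1 count its share was higher in Mki67-high cells of 6 of 6 library groups (difference 26.4 points, background 6.53% of genes). Its mean log2(CPM + 1) was higher by 2.32 in 6 of 6 (background 8.48% of genes). In the sums, however, its edgeR log2 fold change was -0.51 (SE 1.45, adjusted p = 0.96). Without cells with astroglial markers, 12 of 27 (44.4%) and 9 of 70 cells (12.9%) reached 10 CPM of Itga7. Itgav was at this level in 16 of 32 (50%) and 24 of 75 cells (32%). Itgav and Itga4 share 634 and 1124 exonic bases with genes on the opposite strand, so their counts are less certain. Of the 36 cells with 10 CPM or more of Itgb1, 18 had as much Itgav, 10 Itga7, 5 Itga6 and 4 Itga4.

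**Figure D5:**
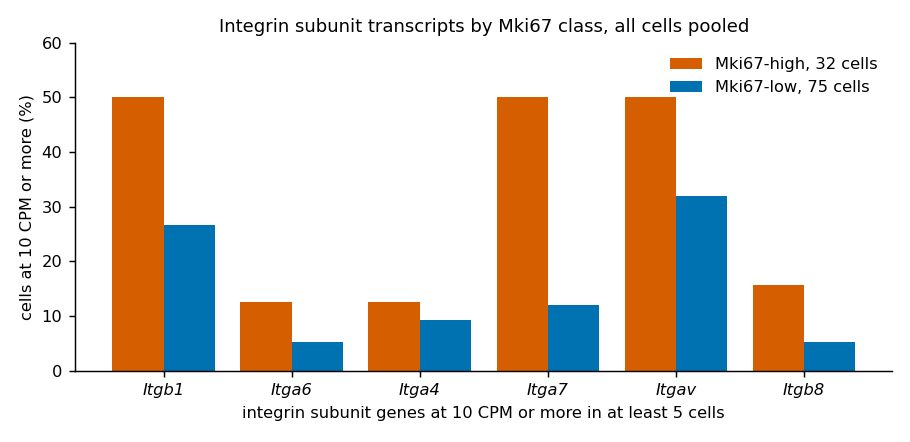
Share of Mki67-high (orange, 32) and Mki67-low (blue, 75) cells with 10 CPM or more of each integrin subunit that reached this level in at least 5 cells, pooled over library groups. Itgb1, Itga7 and Itgav each reached 50% of Mki67-high cells, and the Mki67-low shares were 26.7%, 12% and 32%.

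The ligand side was sparse in these cells. Cxcl12 had a count in 28 cells, 6 of 32 Mki67-high and 22 of 75 Mki67-low, and a highest level of 1231 CPM. Its share was lower in Mki67-high cells of 5 of 6 library groups (mean difference -11.8 points), and its edgeR log2 fold change of -3.03 (SE 1.96, adjusted p = 0.759) did not pass the threshold. The scavenger receptor Ackr3, listed under its older symbol Cxcr7, had a count in 3 cells, all Mki67-high. Of 14 genes of laminins and other basement membrane ligands in the table, 3 passed the filter on low counts and none was called.

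The remaining pathway genes were examined as lists, chosen with earlier results of these data known. No listed gene was called in the sums of Mki67-high against Mki67-low cells: 0 of 15 tested genes of chemokine signalling, 0 of 3 other integrin subunits, 0 of 20 integrin adaptors, 0 of 8 of the dystrophin complex and 0 of 14 of dystroglycan glycosylation. The medians of their log2 fold changes were 0.30, -1.30, -0.32, -0.80 and -0.10, beside -0.18 over all genes tested. The basement membrane ligands had a median of -1.04 over their 3 genes. At an unadjusted edgeR p under 0.05, Gnai3, a Gαi subunit used by chemokine receptors, had a log2 fold change of 4.24 (SE 1.39, adjusted p = 0.474). The integrin adaptor gene Pxn (paxillin) had a log2 fold change of -4.76 (SE 2.17, edgeR adjusted p = 0.670).

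The detection measure gave few further genes in these lists. A higher share in Mki67-high cells of all 6 library groups was found for 1 of 13 chemokine signalling genes detected in 20 cells or more, Cd164 (a sialomucin that associates with CXCR4, 29.2 points). It was also found for 1 of 3 integrin subunits (Itga7) and 1 of 11 glycosylation genes, Pomgnt1, a glycosyltransferase of the dystroglycan sugar chain (20.1 points). None of 18 adaptors, 3 basement membrane ligands and 7 dystrophin complex genes had such a difference. These counts stand beside 6.53% of all genes. Cd164 reached 10 CPM in 14 of 32 Mki67-high (43.8%) and 12 of 75 Mki67-low cells (16%), and Gnai3 in 13 of 32 (40.6%) and 9 of 75 (12%). Except for Itga7, these genes were named after their values were seen.

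Likeness of pattern was measured as Spearman's rho of log2(CPM + 1) over the 109 cells, among genes detected in 20 cells or more. The points share library groups and depth, so these values are descriptions. Among the genes most like Cxcr4 were Gm13461 (rho 0.487) and the cell cycle kinase gene Cdk2 (0.459). For Itgb1 the 3 most alike were Phlpp2, an Akt phosphatase (0.411), 4833420G17Rik (0.388) and the transcription factor gene Tfe3 (0.385). Among those most like Itga6 were Myo6 (0.449) and Gm13622 (0.433), and Dag1 was most like Cdca8, a chromosomal passenger protein of mitosis (0.463), Cacfd1 (0.456) and Tmem43 (0.452). On the same scale, rho with Mki67 was 0.257 for Cxcr4, 0.214 for Itgb1, 0.215 for Itga6 and 0.190 for Dag1, and rho with Dcx was -0.217, -0.103, -0.126 and -0.0816. Between the members, rho ran from 0.00683 (Itga6 with Dag1) to 0.172 (Itgb1 with Itga6).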

How the data were processed

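Single cells of P7 mouse cerebellum, enriched on a Percoll gradient, were captured on C1 Fluidigm chips and sequenced as Smart-seq libraries. The authors aligned reads to mm10 with STAR 2.4.1d and counted them with HTSeq 0.6.1, per the labels, and deposited raw counts of 15973 genes, each with a count in at least 3 of 109 cells. The strand setting and annotation of the counting are not given in the sources used here. Total counts per cell were 15071 to 8616017.

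Counts were summed per class and library group and tested with edgeR 4.0.16 (quasi-likelihood, filterByExpr, TMM, Benjamini-Hochberg adjusted p under 0.01) in R 4.3.3. Shares and mean log2(CPM + 1) were averaged per class and library group and compared with an exact two-sided sign-flip test over the 6 groups, taking p under 0.05. Cells are not replicates. Doublets were not called. No pair of cells had identical counts. Alternatives used DESeq2 1.42.0, limma 3.58.1, other classes, filters and left-out cells or groups, and thinning to 1000000 counts, which left out 1 cell. Statistics were run on simulated data first. For edgeR, recovery of set changes was required only at a spread (dispersion) of 0.05, far below that of the sums here. Its power at the spread of these sums is not given. Genes named by rule were the 4 members, Mki67, Dcx, Cxcl12, Ackr3, the integrin subunits, the 3 genes most correlated with each member and, per list, up to 2 genes in each direction with the smallest edgeR p among those changed the same way in all 6 library groups. The members and lists were chosen with earlier results of these data known. Sequences came from RefSeq (GRCm38.p6). Some genes that this rule names are not reported here.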

Additional observations from a re-analysis of the deposited data

Results flagged for a closer look

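Of 32 sets of 6 library group values examined, 4 held a value far from the other 5, by a rule that chance meets in about 1 of 20 sets. In the Mki67-low cells of library group 2, Cxcr4 had a count in 41.7% of cells, against 0% to 15.4% in the other groups. In library group 1, the mean log2(CPM + 1) of Cxcr4 was 3.86 higher in Mki67-high cells, against 0.89 to 1.70 elsewhere. The summed Itgb1 counts of the Mki67-low cells of library group 3 gave 1223 CPM (others 1.71 to 272.7), where the cell with 8596 CPM lay. Those of Itga6 in library group 4 gave 242.2 CPM (others 0 to 10.9), where the cell with 3457 CPM lay. In addition, a cell of library group 2 outside both classes (Mki67 21.3 CPM, Dcx 1507 CPM) had 369.7 CPM of Dag1 from 1524 counts. The other cell outside the classes had 2 Dag1 counts in a total of 15071.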

How the results depend on the processing

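Of 307 values recomputed for 21 results, 226 kept their direction and side of the threshold, or a count within 1.5 times. The cause of the other changes was not tested, except that 5 library groups cannot give an exact sign-flip p below 0.0625. Leaving out 1 library group gave share differences of 26.76 to 37.42 (Cxcr4), -5.5 to 3.19 (Itgb1, positive without group 1), 18.79 to 26.13 (Itga6) and 23.42 to 30.76 points (Dag1), and mean log2 differences of 1.16 to 1.76 for Cxcr4. Against cells with no Mki67 count (5 groups), the shares differed by 37.64, 4.21, 34.48 and 29.31 points in that order, and Cxcr4 by 1.98 in mean log2. At 5 counts, Itgb1, Itga6 and Dag1 differed by 19.73, 3.72 and 10.07 points, and at 10 CPM by 18.62, 6.50 and 7.61. Thinning gave 8.0 for Itgb1 and 17.61 for Itga6, and Itga6 was at 21.65 without cells of unusual depth. The mean log2 difference of Itgb1 passed the test without astroglial cells (1.12) and after thinning (1.18, chosen after seeing the data).

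The 2 genes called between Mki67 classes became 0 with the library group as a replicate block (602 at an unadjusted p under 0.05), 6 with DESeq2's size factors, 376 with DESeq2, 114 with limma, 6 at a threshold of 0.05, 1 without cells of unusual depth or with astroglial markers, 0 against cells with no Mki67 count, 5 with a split at 50 CPM, and 1 to 2 when a library group was left out (1 without groups 1, 3, 5 or 6). DESeq2's size factors moved the median log2 fold change from -0.18 to 0.09. The 0 genes called by Dcx became 371 with the replicate block, 1485 with DESeq2, 655 at 0.05 and 1 without astroglial cells, and the 0 in the split of Mki67-low cells 419 with DESeq2. Same-numbered sums correlated by 0.0201 to 0.0558, none over 0.1, and 4 of 6 were highest for their own number. Whether the numbers pair the sums was not tested.

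Directions in the sums were unstable. Between Mki67 classes, Cxcr4 stayed positive (5.09 with the replicate block, 5.68 against no Mki67 count, 0.37 to 1.90 with a group left out). Itgb1 was at -0.0586 without a filter and -1.07 to 2.01 with a group left out (negative without groups 1, 5 or 6: -1.07, -0.20 and -0.05). Itga6 was at 4.10 with the replicate block, 0.51 with limma, 0.10 without cells of unusual depth, 2.77 against no Mki67 count and -1.21 to 3.89 with a group left out (positive without group 4). Dag1 was at 1.32 with the block, 0.59 with limma and 4.81 against no Mki67 count. By Dcx, Cxcr4 was at -0.12 with DESeq2's size factors, -0.0657 with DESeq2, -0.72 with limma, -0.95 with a median split and -1.02 to 1.93 with a group left out (negative without group 2). Itgb1 was at 2.16 with the block and 0.27 with sums of at least 2 cells, and Dag1 at -0.17 with limma. Within Mki67-low cells, Itgb1 was at 1.62 with the block and 0.04 with limma. Without astroglial cells, Itga6 did not pass the filter between Mki67 classes.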
